A study of Mus musculus with 4 samples.

Results

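Macrophages that carried at least 4 transcript molecules (UMIs, unique molecular identifiers) of IL1A and CCL20 together were examined in tumors of humanized mice, within the sorted human CD45+ fraction. They numbered 117 of 16327 kept cells (0.717%), of 42702 barcodes in the files. The cells were selected on measured values. A cell had at least 5 UMIs over CD68, MSR1, CD163, C1QA, C1QB and C1QC and at least 4 over IL1A and CCL20. It had at most 9 UMIs of CXCL10, at most 3 over the hypoxia genes SLC2A1, HILPDA and ADM, at most 3 over the metallothioneins MT1G and MT1H, at most 2 over the proliferation genes TOP2A and MKI67, at most 1 over CD3D, CD3G and TRAC, and at most 2 over KRT18 and KRT19. The 4808 cells that passed all of these limits but held fewer than 4 UMIs of IL1A and CCL20 are called other gated macrophages, and both groups together, 4925 cells, gated macrophages.

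The tumors were grown from MDA-MB-231, a human triple-negative breast carcinoma line, in MISTRG mice. These hosts carry human genes for M-CSF, GM-CSF and IL-3 and were engrafted with human fetal CD34+ stem and progenitor cells, so that the sorted human CD45+ cells developed in the mouse. All 14 mice carried tumors; 7 were untreated and 7 received the drug maraviroc. The cells were run as 2 hashed droplet reactions of 7 mice each, reaction 1 with 4 untreated and 3 maraviroc mice and reaction 2 with 3 untreated and 4 maraviroc mice.

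IL-1α, encoded by IL1A, and IL-1β, encoded by IL1B, are activating cytokines that signal through the same receptor, IL1R1 with IL1RAP. IL-1α is active as its precursor and is often released by damaged cells, while IL-1β has to be cleaved by caspase-1 within an inflammasome such as that built on NLRP3. CCL20 is the chemokine of CCR6, a receptor of Th17 cells, regulatory T cells, B cells and immature dendritic cells. All 3 genes are classical targets of NF-κB, which also induces its own inhibitors, among them NFKBIA and TNFAIP3.

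Reaction 1 held 133089612 gene UMIs in 29120 barcodes and reaction 2 held 175447534 in 13582 barcodes, with medians of 2764 and 10204.5 UMIs per barcode. The 2 reactions shared 136 barcode sequences, 32 among kept cells and none among the selected macrophages. The selected cells were split almost evenly, 58 in reaction 1 and 59 in reaction 2. They were deeper than the other gated macrophages, with a median of 13414 against 9909 UMIs per cell, and the gap was wide in reaction 1 (12730 against 5796) and narrow in reaction 2 (14282 against 12870.5). A fixed UMI limit is met more easily in deep cells. The part of depth in the choice was measured by thinning every cell to 5000 UMIs, which left out 3251 kept cells of reaction 1 and 1064 of reaction 2. The share of gated macrophages that passed was 2.34% in reaction 1 and 2.41% in reaction 2 without thinning, and 1.96% and 0.998% after it. These shares are pooled over the cells of a reaction, and 1 mouse weighs heavily in them. The untreated mouse 2 of reaction 1 held 35 of the 58 selected cells of its reaction without thinning and 20 of 29 after it.

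The limits on the other programs removed about as many cells as they left. Of 8417 kept cells with the macrophage genes, 240 reached 4 UMIs of IL1A and CCL20. Of these, 50 exceeded the limit on MT1G and MT1H, 33 that on hypoxia genes, 30 that on CXCL10, 29 that on proliferation genes, 20 that on T cell genes and 3 that on keratins, and a cell could exceed several. Among kept cells of any type, 344 reached the limit of 4 UMIs, 42 of them T cells.

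The labelled identity was checked against marker lists. Of the 13 macrophage markers 6 are genes of the rule, which required them, and these say nothing on identity. The other 7 were all detected, with a summed level of 3662 UMIs per 1000000 (CPM) against 4214 CPM in the other gated macrophages, and the most abundant was MRC1, the mannose receptor, at 1194 CPM. With the rule genes the list summed to 6816 and 8274 CPM. The 8 monocyte markers summed to 8276 CPM against 7399 CPM, led by S100A9 in both groups. Of the 6 neutrophil markers, CXCR2, CMTM2, MME and ALPL were at 0, and the list summed to 64.5 CPM, led by CSF3R at 62.7 CPM, against 75.8 CPM in the other gated macrophages. Of the 5 mast cell markers TPSAB1, TPSB2, MS4A2 and HDC were at 0, and the list summed to 0.614 CPM against 10.3 CPM. Of the 12 carcinoma markers KRT8 and KRT81 were among those at 0, and the list summed to 103 CPM against 83.9 CPM in the other gated macrophages, led in both by AXL, a receptor that macrophages also express, at 50.4 and 50.5 CPM. Its part in the results was not tested. The rule itself capped KRT18 and KRT19 of this list and CD3D, CD3G and TRAC of the T cell list. The 3 other T cell markers were IL7R at 308 CPM, CD3E at 3.07 CPM and CD2 at 3.69 CPM, against 207, 3.72 and 9.52 CPM in the other gated macrophages.

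IL1A and CCL20 chose the cells, and their levels are given as a description. Over all selected cells IL1A stood at 366 CPM and CCL20 at 435 CPM, and over the other gated macrophages at 5.48 and 3.66 CPM. The counting intervals of CPM values here are exact Poisson intervals at 95%, that of IL1A running from 337 to 396 CPM, and cover counting error only. The selected cells made up 0.717% of kept cells and held 31.4% of all IL1A UMIs, 20.8% of all CCL20 UMIs and 7.74% of all IL1B UMIs. Over the other groups measured, IL1A was highest at 20.3 CPM in the macrophages over the MT1G and MT1H limit. It was lowest in T cells, at 2.53 CPM, and keratin-high cells, at 1.11 CPM. The hypoxia gene-high macrophages at 20.1 CPM and the CXCL10-high macrophages at 18.3 CPM were not apart from the highest group by their intervals. Among the groups measured, CCL20 was next highest in T cells, at 44.3 CPM. T cells held 22.1% of all CCL20 UMIs, and 15.4% of them had at least 1 at a median depth of 6916 UMIs, against 2.97% of the other gated macrophages at 9909 UMIs. The rule held the other gated macrophages under 4 UMIs of IL1A and CCL20 but set no such limit on T cells, so these shares only describe the groups.

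**Figure D1:**
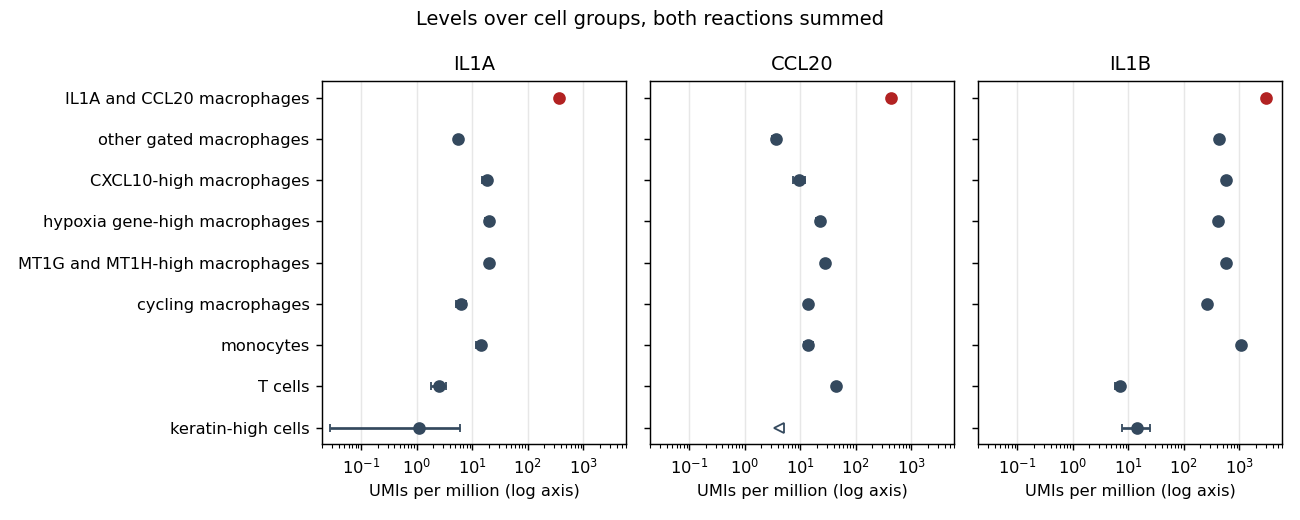
Levels of IL1A, CCL20 and IL1B in CPM (log axis) over 9 groups of kept cells, with exact Poisson intervals at 95%; the open triangle is the upper bound of a group at 0. The selected macrophages, in red, lie at 366, 435 and 2997 CPM, and monocytes come second for IL1B at 1080 CPM.

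Not every selected cell carried both genes. IL1A and CCL20 were detected together in 55 cells, IL1A alone in 31 and CCL20 alone in 31. These subsets are split by the genes of the rule, and their levels, pooled over cells, are given as a description. IL1B stood at 1129 CPM in the cells with CCL20 alone, 3247 CPM in those with IL1A alone and 3896 CPM in those with both. NFKB1, which encodes an NF-κB precursor subunit, stood at 1578, 3545 and 3137 CPM in the same order. IL6 was at 81.9, 334 and 322 CPM. CXCL5 was level between the cells with CCL20 alone and those with IL1A alone, at 261 and 269 CPM. CXCL1 had another order, with 183 CPM in the cells with IL1A alone, 449 CPM in those with CCL20 alone and 715 CPM in those with both. SERPINB2, a plasminogen activator inhibitor of activated monocytes, was at 0 UMIs in the cells with CCL20 alone and was found in 5.98% of all selected cells, against 1.08% of the other gated macrophages. The median depth was 12317 UMIs in the cells with CCL20 alone, 16656 in those with IL1A alone and 12774 in those with both.

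The cells on either side of the limit of 4 UMIs were close in IL1B but not in every gene. The 18 selected cells with exactly 4 UMIs had IL1B at 2301 CPM and CXCL8 at 3050 CPM, and the 32 gated macrophages with 3 UMIs, just outside, had 2111 and 1965 CPM. CXCL5 was at 459 CPM just inside and 72.0 CPM just outside, and S100A8 at 315 and 2061 CPM. The 306 gated macrophages with 1 or 2 UMIs had IL1B at 1356 CPM, and the 4470 with none at 355 CPM. Median depth over these groups was 12541.5, 11690, 11330.5 and 9809.5 UMIs, so depth rose with the IL1A and CCL20 count and its part in these levels was not tested.

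The selected macrophages were found in all 14 mice, from 1 to 35 cells a mouse. The untreated mouse 2 of reaction 1 held 35 of them (29.9%). In reaction 1 they formed 0.538%, 9.72%, 2.95% and 1.42% of gated macrophages in the 4 untreated mice and 0.410%, 0.401% and 1.17% in the 3 maraviroc mice. In reaction 2 they formed 2.43%, 1.26% and 2.79% in the 3 untreated mice and 2.46%, 4.52%, 2.77% and 0.917% in the 4 maraviroc mice. The groups overlapped in both reactions, and the highest share belonged to an untreated mouse in reaction 1 and a maraviroc mouse in reaction 2.

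The question was whether maraviroc changed how often these cells occurred. The share was 3.02% ± 3.09 of gated macrophages in untreated mice and 1.81% ± 1.52 in maraviroc mice (SD, n = 7 each). The difference adjusted for reaction was -1.25 percentage points and did not exceed the spread between mice (two-sided exact permutation within reactions, 1225 regroupings, p = 0.482). Within reaction 1 it was -3.00 points (exact permutation over 7 mice, 35 regroupings being possible, p = 0.229) and within reaction 2 it was 0.51 points (p = 0.629 by the same exact test). Without the untreated mouse 2 of reaction 1 the difference was -0.19 points. As a share of kept cells the values were 1.05% ± 1.21 and 0.469% ± 0.367 (SD, n = 7 each), with a difference of -0.56 points (exact permutation within reactions, p = 0.334). This difference was -0.17 points without the untreated mouse 2 of reaction 1, -1.09 in reaction 1 alone and -0.035 in reaction 2 alone.

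**Figure D2:**
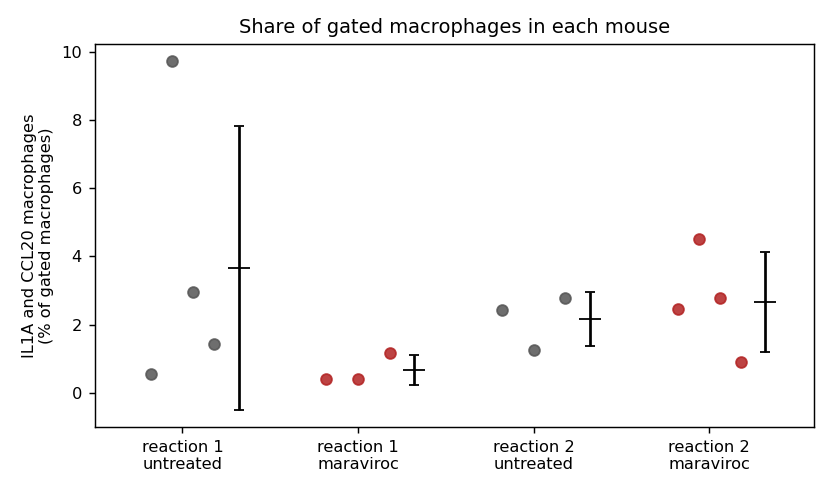
Selected macrophages as a percentage of gated macrophages, one point per mouse, by reaction and treatment; bars show the mean and SD of the group. One untreated mouse of reaction 1 lies at 9.72%, and the other 13 mice lie between 0.401% and 4.52%.

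The genes outside the rule were then compared between the selected and the other gated macrophages of the same mouse, in the 5 mice with at least 10 selected cells (82 cells; 3 untreated and 2 maraviroc mice). All 6 neutrophil-attracting chemokines and 18 of 30 NF-κB genes tested were higher in the selected cells, or 3 of 6 and 10 of 23 against the macrophages nearest in UMIs. IL1B, IL6 and the growth factor EREG were also higher, while LYVE1, MERTK, CCL18 and the heat shock gene BAG3 were lower. Against the macrophages nearest in UMIs MERTK was not called, and LYVE1, CCL18 and BAG3 were not tested. The genes of the rule were left out of the test. Of 9299 genes tested, 162 were higher (1.74% of the genes tested) and 36 lower (0.387%) at an adjusted p under 0.05 (edgeR quasi-likelihood test on summed UMI counts, paired within mice, Benjamini-Hochberg over all genes tested). The count was 122 without the untreated mouse 3 of reaction 2 and 121 without the maraviroc mouse 3 of reaction 2. When each selected cell was set against the other gated macrophage nearest in UMIs, 3387 genes passed the count filter and 47 were called, 46 of them higher. The comparison is between cells chosen for IL1A and CCL20 and cells with fewer of their UMIs, so the genes that differ are those that go with these transcripts in single macrophages.

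IL1B took no part in the rule but was already known to mark these cells, so its difference is not independent evidence. It stood at 2686 and 3271 CPM in the selected cells of the untreated mice 2 and 3 of reaction 1, against 1057 and 647 CPM in the other gated macrophages. In reaction 2 it stood at 1917 CPM in the untreated mouse 3, 4977 CPM in the maraviroc mouse 2 and 2010 CPM in the maraviroc mouse 3, against 266, 791 and 339 CPM. The ranges did not overlap. The log2 fold change was 2.50 ± 0.20 (SE, adjusted p = 7.2e-06, edgeR), and 2.77 ± 0.27 against the cells nearest in UMIs. Of the selected cells 92.3% had IL1B UMIs, with a median of 25 per cell and a highest count of 332. IL1B UMIs were found in 50.5% of the other gated macrophages and in 4.97% of T cells, the latter at a median depth of 6916 UMIs.

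Of the other genes of the IL-1 family, its receptors and the inflammasome, 2 rose. NLRP3, the inflammasome sensor, stood at 392, 315, 395, 339 and 394 CPM in the selected cells of the 5 mice, in the order above, and at 144, 153, 67.4, 133 and 137 CPM in the other gated macrophages. Every mouse was higher and the groups did not overlap, with a log2 fold change of 1.71 ± 0.20 (SE, adjusted p = 0.00012, edgeR). IL1RN, which encodes the receptor antagonist that blocks IL-1 signalling, had a log2 fold change of 0.83 ± 0.16 (SE, adjusted p = 0.0099, edgeR), and 1.49 ± 0.24 against the cells nearest in UMIs. Of the 21 genes listed 13 were tested, and 3 were higher with IL1B, 0 lower and 10 not called. The list's median log2 fold change was 0.00, beside -0.02 over all genes tested. CASP1, the protease that matures IL-1β, had a log2 fold change of 0.00 ± 0.24 (SE), PYCARD, the inflammasome adaptor, -0.16 ± 0.17 and the IL-1 receptor gene IL1R1 0.23 ± 0.47, none of them called.

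All 6 neutrophil-attracting chemokines tested, of 7 listed, rose, with a median log2 fold change of 1.94. These are ligands of CXCR1 and CXCR2, the receptors that guide neutrophils. CXCL8 was the most abundant. It stood at 3105, 3731, 4448, 6207 and 3022 CPM in the selected cells of the 5 mice and at 1530, 1477, 1141, 1427 and 1031 CPM in the other gated macrophages, without overlap (log2 fold change 1.74 ± 0.17, SE, adjusted p = 2.0e-05, edgeR). CXCL3 stood at 1800, 1624, 1558, 2878 and 1215 CPM against 545, 599, 286, 553 and 364 CPM, also without overlap (2.09 ± 0.18, SE, adjusted p = 9.3e-06, edgeR). CXCL2 and CXCL1 rose by 1.90 ± 0.17 and 1.64 ± 0.27 on the log2 scale (SE). CXCL5 and PPBP were the least even, with CXCL5 at 1221 CPM in the maraviroc mouse 2 of reaction 2 and 32.9 CPM, below the 56.7 CPM of its other gated macrophages, in the maraviroc mouse 3. The call on PPBP was lost in 1 of the 5 fits that left out a mouse. Against the cells nearest in UMIs CXCL8, CXCL3 and CXCL2 stayed called, while CXCL1 (2.19 ± 0.55, SE, adjusted p = 0.067, edgeR), CXCL5 (1.61 ± 0.58, adjusted p = 0.24) and PPBP (1.01 ± 1.01, adjusted p = 0.85) did not. CXCL8 was also high outside the selected cells, at 3369 CPM in the hypoxia gene-high macrophages.

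Among the other chemokines, CCL3 and CCL4, which attract monocytes and lymphocytes, rose and CCL18 fell. CCL3 averaged 1180 ± 736 CPM in the selected cells and 492 ± 161 CPM in the other gated macrophages (SD, n = 5; log2 fold change 1.28). CCL4 averaged 1206 ± 968 CPM against 488 ± 232 CPM (1.20), was higher in 4 of 5 mice, and its call was lost in 4 of the 5 fits that left out a mouse. CCL18, a chemokine of alternatively activated macrophages, stood at 19.0, 11.2, 0, 137 and 6.57 CPM in the selected cells and at 307, 169, 99.2, 378 and 125 CPM in the other gated macrophages. It was lower in every mouse, with a log2 fold change of -2.72 ± 0.39 (SE, adjusted p = 0.00071, edgeR), and was not tested against the cells nearest in UMIs. The remaining 9 of 12 tested were not called, among them CCL2, a chemokine of monocytes, at 1148 ± 741 CPM against 864 ± 222 CPM. Of the 9 receptor genes tested none was called. CCR6, the receptor of CCL20, averaged 10.5 CPM in the selected cells and 9.20 CPM in the others.

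Of the other inflammatory cytokines, 7 of 20 were tested, and IL6 and IL10 rose. IL6 stood at 198, 112, 247, 459 and 512 CPM in the selected cells of the 5 mice and at 68.1, 76.0, 50.6, 70.1 and 72.5 CPM in the other gated macrophages. The 2 maraviroc mice had the highest values, and every mouse was higher than its own comparison cells (log2 fold change 2.21 ± 0.27, SE, adjusted p = 0.00016, edgeR). IL10, an inhibitory cytokine, averaged 51.9 ± 15.3 CPM against 18.8 ± 7.06 CPM (SD, n = 5; 1.61 ± 0.27, SE). TNF was not called. Its level was 51.7, 5.62, 7.05, 96.7 and 19.7 CPM in the selected cells, resting on 19, 1, 1, 24 and 3 UMIs, against 35.1, 26.1, 10.9, 15.5 and 9.44 CPM. INHBA, a subunit of activin A, averaged 79.4 ± 75.7 CPM against 21.6 ± 13.4 CPM (SD, n = 5; 1.88 ± 0.53, SE, adjusted p = 0.088, edgeR).

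All 30 NF-κB components and targets listed were tested; 18 rose, 0 fell and 12 were not called, with a median log2 fold change of 0.96. Of the subunits, NFKB1 stood at 3168, 3355, 4117, 3136 and 2608 CPM against 1561, 800, 553, 1073 and 893 CPM, without overlap (1.95 ± 0.21, SE, adjusted p = 6.4e-05, edgeR). RELB and REL rose by 0.99 and 0.84 on the log2 scale, while RELA, at 0.16, and NFKB2, at 0.84 with an adjusted p of 0.21 by edgeR, were not called. Several inhibitors and regulators of the pathway rose, and others were not called, NFKBIB at 0.47, NFKBID at 0.33, NFKBIE at 0.20 and TNIP3 at 2.04 with an adjusted p of 0.063 by edgeR. NFKBIA averaged 1391 ± 356 CPM against 555 ± 175 CPM and TNFAIP3 654 ± 113 CPM against 219 ± 56.9 CPM (SD, n = 5), and TNIP1, NFKBIZ and IRAK3 rose by 1.30, 1.45 and 0.74 on the log2 scale. Of the adaptors and kinases, TRAF1, which binds TNF receptors, rose by 2.55, IRAK2, which signals from IL-1 and Toll-like receptors, by 1.52 and MAP3K8 by 0.89. Of the target genes, SOD2, the mitochondrial superoxide dismutase, averaged 2658 ± 563 CPM against 1030 ± 185 CPM, and TNFAIP6, a hyaluronan-binding protein, rose by 2.84 from 10.2 CPM. ICAM1, at 0.62, and BIRC3, at 0.74, were not called. Against the cells nearest in UMIs, 10 of 23 tested rose and 0 fell, with a median of 0.997.

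**Figure D3:**
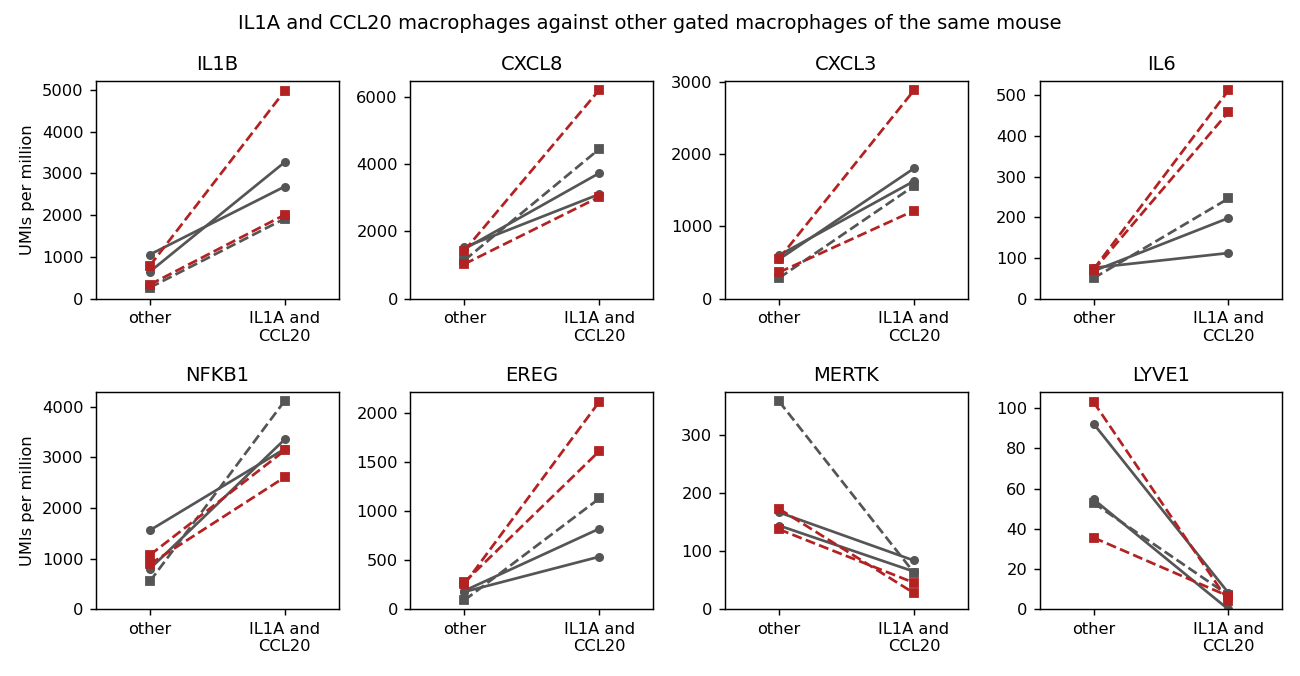
CPM of 8 genes in the other gated macrophages (left) and the selected macrophages (right) of the same mouse, one line per mouse with at least 10 selected cells; grey is untreated, red maraviroc, solid lines with circles reaction 1 and dashed lines with squares reaction 2. The lines of IL1B, CXCL8, CXCL3, IL6, NFKB1 and EREG rise and those of MERTK and LYVE1 fall in all 5 mice.

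The matrix, plasminogen and growth factor genes gave 4 calls of 18 tested, all higher, with a median of 0.57. EREG and AREG encode epiregulin and amphiregulin, ligands of the EGF receptor. EREG stood at 536, 820, 1128, 2112 and 1610 CPM in the selected cells and at 179, 190, 93.9, 257 and 277 CPM in the other gated macrophages, without overlap (2.72 ± 0.24, SE, adjusted p = 9.3e-06, edgeR). AREG rose by 1.53, PLAUR, the urokinase receptor, by 0.85 and the metalloproteinase MMP19 by 0.95 on the log2 scale. MMP9 and FN1, at 0.65 and 1.59, were not called. PTGS2, the inducible cyclooxygenase, averaged 180 ± 45.9 CPM against 86.4 ± 20.1 CPM (SD, n = 5; 1.19 ± 0.19, SE, adjusted p = 0.0018, edgeR) and was the single call among 12 prostaglandin genes tested.

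The immediate early genes, which rise within minutes of stimulation or tissue handling, gave 1 call of 23 tested, the phosphatase gene DUSP2 (1.14), with a median of 0.37. None of 12 heat shock genes was higher. HSPA6, HSPH1 and BAG3 fell by 1.72, 0.90 and 3.31 on the log2 scale, and the list's median was -0.48. With at least 5 selected cells per mouse, a setting added after seeing the data, 9 of 12 were lower and the median was -0.77. Against the cells nearest in UMIs none of 10 tested was called and the median was -0.27, with HSPH1 at -0.18 ± 0.26 (SE, adjusted p = 0.90, edgeR) and HSPA6 and BAG3 not tested. BAG3, a co-chaperone of HSP70, stood at 10.9, 5.62, 0, 0 and 6.57 CPM in the selected cells, 6 UMIs in all over the 5 mice being behind these values, and at 64.1, 42.3, 79.1, 54.1 and 56.8 CPM in the other gated macrophages.

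Resident macrophage genes were lower in part. LYVE1, a hyaluronan receptor of perivascular macrophages, stood at 8.16, 0, 7.05, 4.03 and 6.57 CPM in the selected cells and at 92.2, 54.7, 52.9, 103 and 35.6 CPM in the other gated macrophages, without overlap (-3.59 ± 0.42, SE, adjusted p = 0.00012, edgeR). MERTK, a receptor for the uptake of apoptotic cells, stood at 65.3, 84.3, 63.4, 28.2 and 46.0 CPM against 144, 167, 359, 173 and 138 CPM, again without overlap (-1.54 ± 0.25, SE, adjusted p = 0.0023, edgeR). Against the cells nearest in UMIs MERTK was at -1.45 ± 0.36 (SE, adjusted p = 0.067, edgeR), and LYVE1 was not tested. The other 11 of 13 tested were not called, among them SELENOP at -1.24, and the median was -0.42. Over this list none of 11 tested was called against the cells nearest in UMIs, and the median was -0.12. With at least 5 selected cells per mouse 3 of 13 were lower and the median was -0.29. Of the lipid-associated genes, PLIN2, which coats lipid droplets, rose by 0.79 and CD36, the fatty acid receptor, fell by 0.86 on the log2 scale, while 15 of 17 were not called. Both calls were lost in 4 of the 5 fits that left out a mouse.

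No call was made among 20 interferon-stimulated, 11 MHC class II, 10 glycolysis and hypoxia and 13 immune regulation genes tested, with medians of -0.30, -0.05, 0.25 and -0.19. With at least 5 selected cells per mouse 3 interferon-stimulated genes were lower and 1 glycolysis and hypoxia gene was higher. The metallothionein and NRF2 list gave 1 call of 9, the ferritin gene FTH1 (0.68). Of 15 monocyte genes CLEC4E and AQP9 rose by 1.25 and 1.82 on the log2 scale, AQP9 in 3 of 5 mice, and the median was 0.10. The rule itself caps CXCL10, hypoxia genes and MT1G and MT1H in both groups, which bears on the interferon, hypoxia and metallothionein lists.

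**Figure D4:**
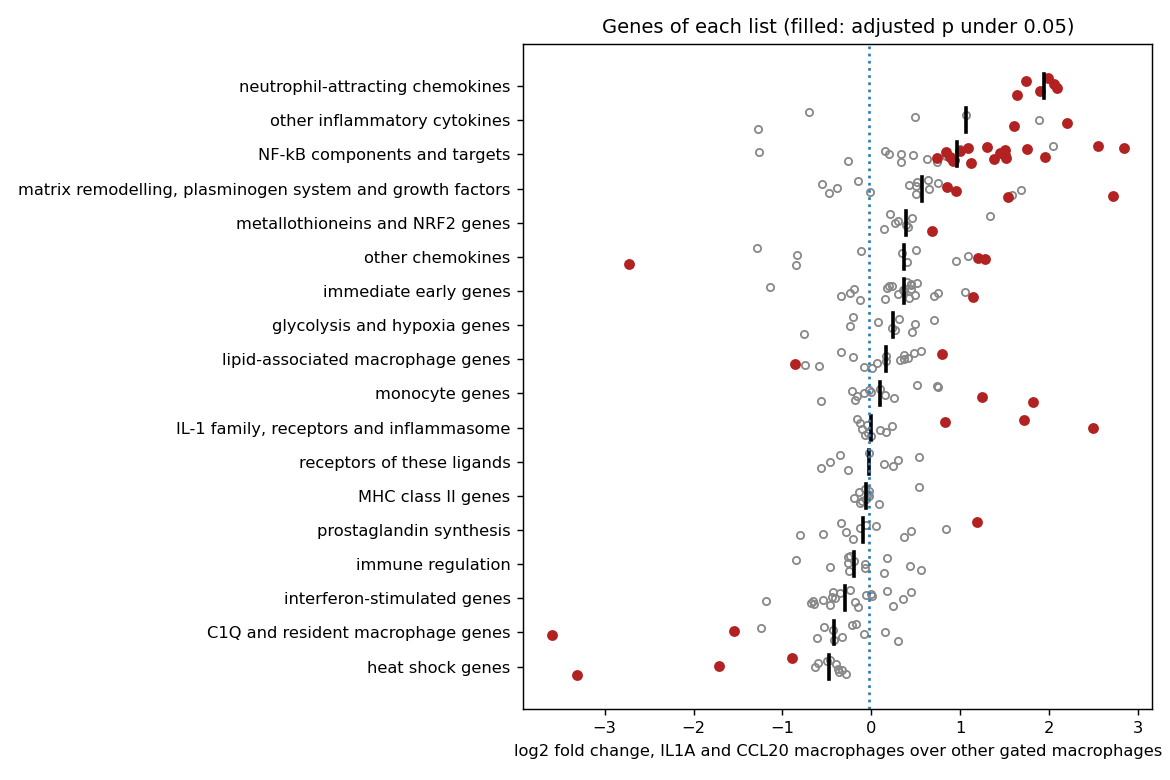
Log2 fold change of each tested gene of 18 lists, selected over other gated macrophages, with filled red points for an adjusted p under 0.05 (edgeR), black bars for list medians and a dotted line for the median of all genes tested. The list medians run from 1.94 for neutrophil-attracting chemokines to -0.48 for heat shock genes.

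Genes outside the lists were named by size of change among genes called, at 50 CPM or more in the higher group and with the same direction in every mouse, which 130 higher and 26 lower genes met. Of the 15 largest increases, ELOVL7, a very-long-chain fatty acid elongase, led with 132 ± 44.7 CPM against 17.2 ± 8.72 CPM (SD, n = 5; log2 fold change 3.11), but its log2 fold change was 1.82 ± 0.38 (SE) against the cells nearest in UMIs. ITGB8, the integrin chain that activates latent TGF-β, was at 74.0 ± 77.1 against 9.83 ± 9.12 CPM (3.03), and MIR155HG, the host transcript of microRNA-155, at 201 ± 175 against 29.8 ± 11.6 CPM (2.70). ITGB8 was found in a minority of the selected cells, 22.6% of those with IL1A alone, 9.68% with CCL20 alone and 27.3% with both. Against the cells nearest in UMIs it was not tested. PLEKHA6 (3.03), the antisense transcript AZIN1-AS1 (2.44), the unnamed transcript AL078604.4 (2.36), the dynein gene DNAH17 (2.26), the scramblase relative PLSCR2 (2.15) and the astacin metalloprotease ASTL (2.08) completed the set with the listed genes TNFAIP6, EREG, TRAF1, IL1B, IL6 and CXCL3. Of the 10 largest decreases outside the lists, the scavenger receptor relative CD163L1 was at 54.9 ± 23.1 against 183 ± 38.6 CPM (-1.46, and -0.63 ± 0.34, SE, not called, against the cells nearest in UMIs), the EGF family ligand NRG1 at 113 ± 98.0 against 295 ± 70.8 CPM (-1.37), and MIR99AHG (-2.02), DST (-1.39) and MBNL2 (-1.23) were lower too.

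GNLY, a granule protein of NK and T cells, was also among the largest decreases, with a log2 fold change of -2.43 ± 0.30 (SE, adjusted p = 0.00021, edgeR). It stood at 57.1, 61.8, 7.05, 12.1 and 13.1 CPM in the selected cells and at 528, 162, 70.5, 98.6 and 49.5 CPM in the other gated macrophages, lower in every mouse although the ranges overlapped. Against the cells nearest in UMIs GNLY was not tested. The 5 NK cell markers together summed to 68.8 CPM in the selected cells, led by KLRD1 with KLRF1 at 0, and to 225 CPM in the other gated macrophages, led by GNLY. The part of NK cell RNA in this difference was not tested.

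Of the 63 genes named in this comparison, 42 stayed past the threshold whichever of the 5 mice was left out and 21 lost it at least once, while 0 changed sign. With a limit of 8 UMIs, which left 2 mice, PLEKHA6 and PLSCR2 turned to -0.38 and -0.091, and AQP9 was at -0.020 in reaction 1 alone. Against the cells nearest in UMIs, 48 of the 63 were tested, all with the same sign, and 25 were called. Not tested were the increases ITGB8, PLEKHA6, TNFAIP6, DNAH17, PLSCR2, IL10 and CLEC4E. Of the decreases, LYVE1, BAG3, CCL18, GNLY, MIR99AHG, HSPA6, DST and MBNL2 were not tested either. The 23 that lost the call were CXCL1, CXCL5, PPBP, CCL4, REL, RELB, NFKBIZ, TNIP1, IRAK3, MAP3K8, BCL2A1, DUSP2, AREG, MMP19, FTH1, PLIN2, CD36, AQP9, ASTL, MERTK, NRG1, CD163L1 and HSPH1. That fit held fewer comparison cells and tested fewer genes, and the log2 fold changes of most of the 23 stayed close to those above or were larger, such as 1.99 for AREG, 1.44 for CCL4, 2.07 for AQP9 and 1.02 for PLIN2, against 1.53, 1.20, 1.82 and 0.79. PPBP, CD163L1 and HSPH1 moved furthest toward 0, to 1.01, -0.63 and -0.18 from 1.99, -1.46 and -0.90.

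CXCL10-high macrophages and monocytes served as further comparisons, in the same 5 mice. Neither group was limited in IL1A and CCL20, so each could hold cells with 4 UMIs of them or more. Against CXCL10-high macrophages (207 cells in these mice, 10 to 104 per mouse), 158 genes (3.79% of 4174 tested) were higher and 167 (4%) lower. IL1B was higher by 2.40 ± 0.46 on the log2 scale (SE, adjusted p = 0.0098, edgeR), and 5 of 6 neutrophil-attracting chemokines were higher, PPBP by 4.58 and CXCL5 by 3.15, while CXCL1 was not called (1.11). Of 20 interferon-stimulated genes tested 18 were lower, with a median of -1.86, and the rule caps CXCL10 in one group alone, so this difference is read as a description. IL6, at 145 CPM in the CXCL10-high cells, was not called (1.37, adjusted p = 0.14, edgeR), nor were CCL3, CCL4 and IL1RN (0.23, -0.20 and 0.00). Of the genes with the largest increases over the other gated macrophages, ITGB8 (1.98, adjusted p = 0.28), MIR155HG (1.14, adjusted p = 0.38), TNFAIP6 (0.97, adjusted p = 0.31), TRAF1 (1.89, adjusted p = 0.057) and ASTL (1.03, adjusted p = 0.22) were not called against CXCL10-high macrophages either (edgeR). Of the other genes named above, AQP9 (2.10), CD83 (0.72), REL (0.65), BCL2A1 (0.59), TNFAIP8 (0.39) and CLEC4E (0.31) were not called. CD36, lower against the other gated macrophages, was at 0.05 here and not called. NF-κB genes gave 12 higher and 1 lower of 25 tested, with a median of 0.98 beside 0.01 over all genes tested.

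Against monocytes (422 cells in these mice, 54 to 125 per mouse, with at least 10 UMIs over S100A8, S100A9, S100A12, VCAN and FCN1, fewer than 5 over the macrophage genes and none of C1Q), 470 genes (9.51% of 4944 tested) were higher and 373 (7.54%) lower. Among the cell groups measured, monocytes were next highest for IL1B, with a mean of 1339 CPM in these mice. The selected macrophages exceeded them by 1.32 ± 0.15 on the log2 scale (SE, adjusted p = 8.7e-05, edgeR), in 5 of 5 mice. All 6 neutrophil-attracting chemokines were higher, with a median of 4.64. PPBP, CXCL5 and CXCL1 were at 3.33, 5.95 and 8.75 CPM in the monocytes, and IL10 was at 1.95 CPM. The directions of resident macrophage and monocyte genes follow from how these groups were chosen and are not read as results. The 5 genes that chose the monocytes stayed in this fit, and 4 of them, all but VCAN, are among the genes called lower. Of the genes named above, TNIP1, IRAK3, BCL2A1, AQP9 and CD44 were not called against monocytes, with log2 fold changes of 0.17, -0.14, 0.10, -0.19 and 0.33. Nor were AREG (0.60), MAP3K8 (0.54), PLIN2 (0.57), FTH1 (0.32), CLEC4E (0.82), HSPH1 (-0.80), MBNL2 (-0.72) and NRG1 (-0.50).

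Treatment took no part in the choice of cells and was tested within them. No gene passed an adjusted p of 0.05 (0 of 3726, 0%; edgeR with reaction as a term, 3 untreated and 2 maraviroc mice), while 266 had an unadjusted p under 0.05 and DESeq2 called 1. Both reaction 1 mice with at least 10 selected cells were untreated, so the contrast rests on 1 untreated and 2 maraviroc mice of reaction 2. The lowest p-values among decreases belonged to HMOX1, heme oxygenase 1, at 1268 ± 1147 CPM in the 3 untreated and 187 ± 78.1 CPM in the 2 maraviroc mice (SD; log2 fold change -3.73 ± 0.60, SE, adjusted p = 0.37, edgeR), then TXNRD1 (-2.86) and HOMER1 (-2.67). The untreated mouse of reaction 2 had 2545 CPM of HMOX1 and those of reaction 1 had 933 and 326 CPM. HOMER1 was more even, at 275 CPM in the untreated mouse of reaction 2 and 239 and 332 CPM in those of reaction 1. In the maraviroc mice HOMER1 stood at 40.3 and 46.0 CPM. Among increases the lowest p-values belonged to PPP2R2A (2.44), SRP19 and FAM126A (3.10), with adjusted p-values of 0.53 to 0.54 by edgeR. The folds of these increases, like that of HMOX1, follow the untreated mouse of reaction 2. PPP2R2A stood at 35.2 CPM in it, 101 and 89.9 CPM in the untreated mice of reaction 1 and 193 and 197 CPM in the maraviroc mice. FAM126A stood at 14.1 CPM in it, 101 and 73.1 CPM in the untreated mice of reaction 1 and 141 and 105 CPM in the maraviroc mice. SRP19 was at 0 UMIs in it, so its fitted value of 6.92 is no measure of size, and at 57.1 and 50.6 CPM in the untreated mice of reaction 1 and 68.5 and 72.3 CPM in the maraviroc mice. IL1B was 0.88 ± 0.52 higher on the log2 scale (SE, adjusted p = 0.76, edgeR). The count of calls was 28 without the untreated mouse 2 of reaction 1, 42 without the maraviroc mouse 2 of reaction 2 and 166 without the maraviroc mouse 3. Each of these fits has 1 residual degree of freedom, from 1 pair of mice of the same group, and the last 2 set 1 mouse against 1 within reaction 2, so these counts say nothing on stability.

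To follow IL1A, CCL20 and IL1B without the limit of 4 UMIs, their levels were taken over all gated macrophages of the 14 mice. CCL20 ranged from 7.57 to 86.6 CPM with a median of 20.2 in untreated mice and from 5.89 to 16.0 with a median of 7.13 in maraviroc mice. In reaction 1 the groups were apart, the untreated mice lying between 13.9 and 86.6 CPM and the maraviroc mice between 5.89 and 6.68 CPM, and in reaction 2 they overlapped. The log2 fold change was -1.29 ± 0.48 (SE, unadjusted p = 0.016, adjusted p = 1.0, edgeR), with -2.69 in reaction 1 alone and -0.22 in reaction 2 alone. The difference between the reactions in the treatment effect on log2(CPM + 1) of CCL20 was 1.93. It did not pass the threshold (exact permutation within reactions, p = 0.072, adjusted over 6 such tests 0.11). These tests regroup treatments within reactions, so they set the difference against no treatment effect in either reaction, not against equal effects. The selected cells supplied between 34.8% and 89.5% of the CCL20 UMIs of a mouse's gated macrophages. Of 11524 genes tested over all gated macrophages none was called (0%), 416 had an unadjusted p under 0.05 and DESeq2 called 0.

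The means of IL1A and IL1B by treatment went opposite ways in the 2 reactions, although for IL1A the difference between reactions did not pass the test below. IL1A averaged 25.6 ± 24.4 CPM in the 4 untreated and 9.54 ± 6.58 CPM in the 3 maraviroc mice of reaction 1, and 8.51 ± 4.71 CPM in the 3 untreated and 19.5 ± 17.5 CPM in the 4 maraviroc mice of reaction 2. The untreated mouse 2 of reaction 1 (60.7 CPM) and the maraviroc mouse 2 of reaction 2 (45.5 CPM) raised these means. The IL1A medians, untreated first, were 18.2 and 7.30 CPM in reaction 1 and 6.10 and 11.9 CPM in reaction 2. IL1B averaged 794 ± 337 and 338 ± 88.4 CPM in reaction 1, where the lowest untreated mouse (516 CPM) exceeded the highest maraviroc mouse (440 CPM), and 330 ± 67.4 and 599 ± 273 CPM in reaction 2, where the groups overlapped between 386 and 405 CPM. Over both reactions the log2 fold change was -0.06 ± 0.63 for IL1A and -0.17 ± 0.39 for IL1B (SE, adjusted p = 1.0 each, edgeR), and without the untreated mouse 2 of reaction 1 these were 0.43 and 0.03. The difference between the reactions in the treatment effect on log2(CPM + 1) of IL1B was 1.95 (exact permutation within reactions, p = 0.0033, adjusted over 6 such tests 0.020), and that of IL1A was 1.95 (exact permutation, p = 0.098, adjusted 0.12). As for CCL20, these p-values are against no treatment effect in either reaction.

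**Figure D5:**
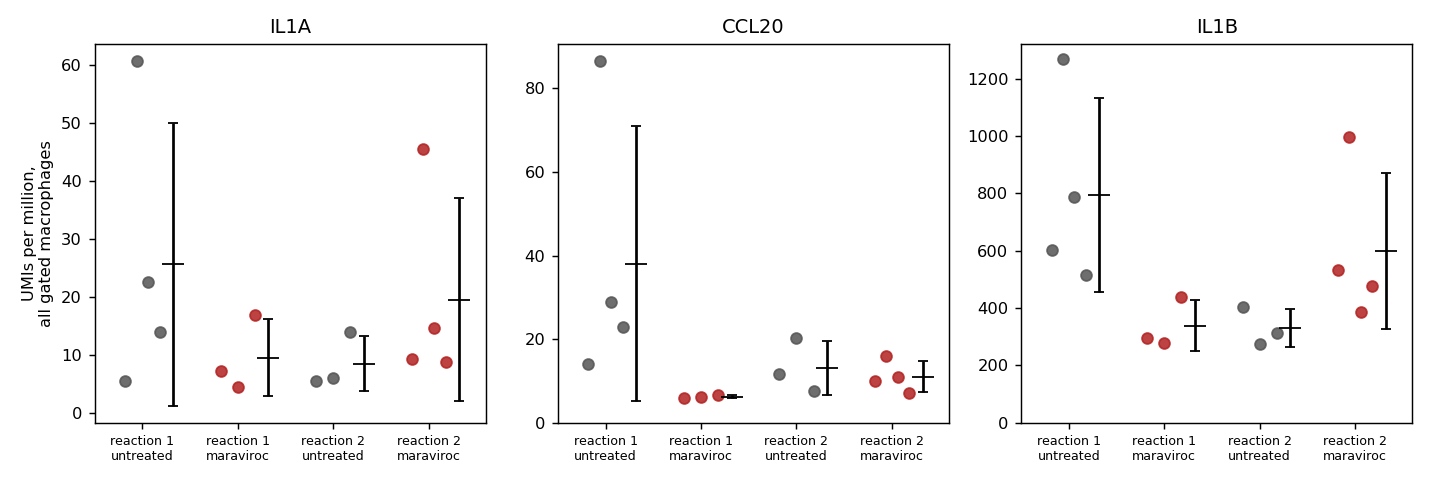
CPM of IL1A, CCL20 and IL1B summed over all gated macrophages, one point per mouse by reaction and treatment, with the mean and SD of each group. IL1B is lower with maraviroc in reaction 1 (338 against 794 CPM) and higher in reaction 2 (599 against 330 CPM).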

How the data were processed

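Human CD45+ cells were sequenced with a droplet 3′ kit in 2 hashed reactions. The authors deposited unnormalized UMI counts per gene and hashtag from Cell Ranger 9.0.1 on GRCh38 for barcodes called as cells. The labels give the reaction, and the treatment of each mouse was read from the hashtag name. Barcodes with 601 to 6000 genes, under 12.5% mitochondrial UMIs and at least 60% of hashtag UMIs on 1 hashtag were kept, 16327 of 42702. The limit on hashtags removed the most, from 37806. No doublet caller was run, so that doublets within a mouse could remain. The members, the lists and the comparisons were chosen with earlier results of these data known. Each mouse is 1 replicate.

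Counts were summed per mouse and cell group and tested with edgeR 4.0.16 (TMM, low-count filter, quasi-likelihood test) under R 4.3.3, on groups of at least 10 cells. Values in CPM are UMIs per 1000000 gene UMIs of the group. Genes are named where they belong to the lists and were called, or were among the 15 largest increases and 10 largest decreases called with at least 50 CPM and 1 direction in all mice; for treatment, the 3 lowest p-values each way. Other list genes are given as values. Shares were compared by exact permutation with Python 3.11.15, numpy 2.4.6 and pandas 2.3.3. The fits were tested on simulated data. Alternatives were DESeq2 1.42.0, no low-count filter, other limits on cells and members, depth matching, thinning, each reaction alone and leaving out each mouse. At least 5 members per mouse for the cell comparison was added after seeing the data. Some items are not reported here.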

Additional observations from a re-analysis of the deposited data

Results flagged for a closer look

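Of 10 sets of 7 mice examined for a mouse far from the rest, 6 had one. Chance gives about 1 in 20 in separate sets of normally distributed values. These sets are not separate, since the shares and the IL1A and CCL20 levels largely count the same cells. Each set also mixes the 2 reactions, and whether its values are normally distributed was not tested. The untreated mouse 2 of reaction 1 accounted for 4 of the 6, and 72.5% of its IL1A and 84.0% of its CCL20 UMIs in gated macrophages came from the selected cells. The selected macrophages formed 9.72% of its gated macrophages (next untreated mouse 2.95%), and the highest share of kept cells, 3.65% (next 1.18%), was its own as well. Over all its gated macrophages IL1A stood at 60.7 CPM (next 22.6) and CCL20 at 86.6 CPM (next 28.9). The maraviroc mouse 2 of reaction 2 accounted for the others, with IL1A at 45.5 CPM (next maraviroc mouse 17.0) and IL1B at 998 CPM (next 533).

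The estimated treatment effect over all gated macrophages differed between the reactions for IL1B, by 1.95 on log2(CPM + 1) (exact permutation within reactions, p = 0.0033, adjusted 0.020). The p-values of these differences are against no treatment effect in either reaction, not against equal effects. For CXCL8 the difference was 0.74 (exact permutation, p = 0.029, adjusted 0.059) and for IL6 0.89 (exact permutation, p = 0.021, adjusted 0.059), which missed the threshold after adjustment over 6 tests. All 3 effects were negative in reaction 1 and positive in reaction 2. Reaction and the mice in it cannot be told apart.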

How the results depend on the processing

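The share of selected cells among gated macrophages kept its negative difference except in reaction 2 alone (0.51 points), and ran from -1.66 to -0.19 points when a mouse was left out. Genes called against other gated macrophages, 198 in the fit reported, numbered 121 to 178 when a mouse was left out, 362 without the low-count filter, 425 with at least 5 selected cells per mouse (9 mice, added after seeing the data), 47 against cells nearest in UMIs, 25 with a limit of 8 UMIs (2 mice), 52 with at most 5000 genes (3 mice), 121 with mitochondrial UMIs under 10% (4 mice) and 63 with at least 80% of hashtag UMIs (2 mice). With the limit of 8 UMIs PLEKHA6 (-0.38) and PLSCR2 (-0.091) turned, and AQP9 (-0.020) in reaction 1 alone; 17 of the 63 named genes were called in every fit that tested them, IL1B, CXCL8, CXCL3, IL6, NFKB1 and EREG among them. Genes by treatment in the selected cells, 0 in the fit reported, numbered 1 by DESeq2, 58 without the filter, 18 in reaction 2 alone, 166 with mitochondrial UMIs under 10% and 0 to 166 when a mouse was left out; the last 3 settings have 1 residual degree of freedom and say nothing on stability. CCL20, a gene of the rule whose level there is set in part by the choice of cells, was -0.51 without a reaction term and -1.01 with at least 5 cells per mouse, against 0.57. Over all gated macrophages reaction 1 alone gave 19 calls. IL1A and IL1B by treatment were 1.24 and 0.89 in reaction 2 alone, and ran from -0.62 to 0.43 and from -0.42 to 0.071 when a mouse was left out. The causes were not tested beyond the loss of mice and genes that each limit brings. Treatment in the selected cells could not be fitted in reaction 1 alone, without the untreated mouse 3 of reaction 2, or with at least 20 cells per mouse, 8 UMIs, 5000 genes or 80% of hashtag UMIs. No paired analysis was possible because the mouse numbers name different animals in each treatment; cell groups were paired within mice.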
